A study of Mus musculus with 4 samples.

Results

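The genes described here make up the working parts of the lysosome: its hydrolases with their cofactors, its membrane proteins and the subunits of its proton pump. They were found by matching a list of 39 gene symbols to the annotation of the array. Of these, 38 were measured, by 79 of the 22690 probe sets, and Atp6v0c was not analysed here. By role they were grouped into 22 hydrolases or cofactors (44 probe sets), 6 membrane proteins (11 probe sets) and 10 proton pump subunits (24 probe sets). Npc2, which hands cholesterol to a membrane protein and is not itself a hydrolase, was counted with the hydrolases or cofactors.

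Macrophages were sorted as YFP-positive cells from mouse mammary glands, and 1 RNA sample per group was hybridised to 1 array. The Ets2-deficient tumor group came from early-stage mammary tumors induced by PyMT, the middle T antigen of polyoma virus, and had 2 copies of the transcription factor gene Ets2 deleted. The Ets2-expressing tumor group, wild type by its title, carried 1 copy of Ets2 by its source label. The Ets2-deficient remodeling group came from remodeling glands without tumor and had 2 copies of Ets2 deleted. The Ets2-expressing remodeling group was wild type. The labels give YFP in macrophages for all groups. What drives YFP and the deletion, the age of the mice and how many were used per sample are not given in the sources used here.

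The lysosome is the acidic compartment in which macrophages break down what they engulf. Hydrolases take proteins, glycans and lipids apart, sphingolipid activator proteins present lipids to them, and membrane proteins shield the limiting membrane and let products and ions out. The proton pump, a rotary enzyme with an ATP-hydrolysing sector in the cytosol and a proton-carrying sector in the membrane, keeps the lumen acidic. Many of these genes carry in their promoters the CLEAR element, an extended E-box to which the transcription factor TFEB and its relatives bind.

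That element was looked for in the RefSeq promoter windows (build GRCm38.p6), which run from 250 bases before to 50 bases after a gene's start. A window was found for 32 of the 38 measured members. The E-box CACGTG, which reads the same on both strands, stood in the windows of 11 of these 32 members (34.4%), against 1069 of 9887 genes on the array with a window (10.8%) and 2187 of 27025 genes in all (8.09%). The longer form TCACGTG, searched on both strands and containing the E-box, was present in 11 of the 32 members (34.4%), against 6.10% of genes on the array. TCACGTGA was present in 4 members (12.5%, against 1.76%), and the full CLEAR palindrome, which extends that by a base on either side, in 1 member (3.13%, against 0.556%). Other lysosome genes, outside the member list, had shares of 25.9% (CACGTG), 21.0% (TCACGTG), 11.1% (TCACGTGA) and 2.47% (full palindrome). These shares are a description of letters and no test was run. The median GC content of the windows was 56.7% for members and 59.0% for genes on the array.

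Of the 17 E-boxes in the members, 13 lay within 100 bases before the gene start, and the positions ran from -149 to -3 (median -48). The hydrolase genes with an E-box were Gaa, Glb1, Lgmn, Naglu and Sgsh. Among membrane proteins they were Cln3, Lamp1 and Mcoln1, and among pump subunits Atp6v0b, Atp6v0d1 and Atp6v1a. The 250 bases before the start of 5 of them follow in the direction of transcription, because they hold the longest match (Cln3), several E-boxes (Mcoln1, Lamp1), a palindrome longer than the E-box (Atp6v1a) or belong to a member past 2-fold (Naglu). Capitals mark each E-box, extended outward on both sides as far as the letters stay palindromic, up to the length of the full CLEAR palindrome.
Cln3 (chr7:126583237-126583486, minus strand): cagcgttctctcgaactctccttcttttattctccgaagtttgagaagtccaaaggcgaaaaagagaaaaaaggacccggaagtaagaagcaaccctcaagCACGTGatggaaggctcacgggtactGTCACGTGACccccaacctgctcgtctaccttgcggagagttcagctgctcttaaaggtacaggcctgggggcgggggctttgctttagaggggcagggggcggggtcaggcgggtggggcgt
Mcoln1 (chr8:3500269-3500518, plus strand): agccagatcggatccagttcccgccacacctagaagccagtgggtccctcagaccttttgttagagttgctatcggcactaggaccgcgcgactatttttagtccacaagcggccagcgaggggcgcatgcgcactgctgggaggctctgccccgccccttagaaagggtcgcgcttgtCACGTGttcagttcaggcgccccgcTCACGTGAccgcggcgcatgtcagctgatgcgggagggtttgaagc
Lamp1 (chr8:13158911-13159160, plus strand): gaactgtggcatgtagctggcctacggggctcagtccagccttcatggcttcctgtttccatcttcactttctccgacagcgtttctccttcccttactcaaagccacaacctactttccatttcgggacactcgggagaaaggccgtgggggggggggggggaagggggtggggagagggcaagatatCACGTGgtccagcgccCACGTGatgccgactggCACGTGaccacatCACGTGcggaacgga
Atp6v1a (chr16:44139260-44139509, minus strand): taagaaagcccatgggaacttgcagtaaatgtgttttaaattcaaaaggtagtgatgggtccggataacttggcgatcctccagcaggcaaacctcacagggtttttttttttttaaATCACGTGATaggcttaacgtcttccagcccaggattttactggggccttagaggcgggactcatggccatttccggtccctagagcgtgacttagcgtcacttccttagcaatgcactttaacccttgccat
Naglu (chr11:101069844-101070093, plus strand): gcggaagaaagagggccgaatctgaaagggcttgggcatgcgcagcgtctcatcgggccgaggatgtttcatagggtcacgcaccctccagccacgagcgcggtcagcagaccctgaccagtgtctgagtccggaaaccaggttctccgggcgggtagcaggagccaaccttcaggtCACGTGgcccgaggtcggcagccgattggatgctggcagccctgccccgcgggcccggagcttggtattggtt
The letters show 4 E-boxes in a row before the Lamp1 start, and in Cln3 the full palindrome downstream of a plain E-box.

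**Figure D1:**
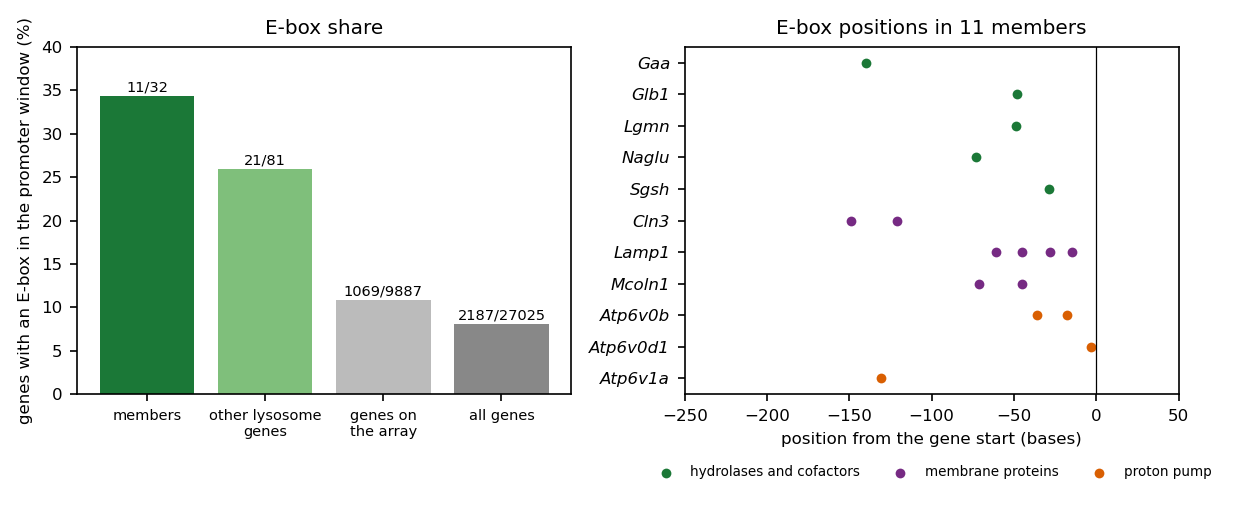
Left, the share of genes (%) with at least 1 E-box in the promoter window, for the measured members, other lysosome genes, genes on the array and all genes with a window, with counts above the bars. Right, the position of every E-box from the gene start (bases) in the 11 members that hold it, coloured by role. The bar of the members stands at 34.4%, and 13 of 17 positions lie within 100 bases before the start.

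The values are log2 expression values as deposited, and array medians were 6.30 (Ets2-deficient tumor), 6.22 (Ets2-expressing tumor), 5.98 (Ets2-deficient remodeling) and 6.17 (Ets2-expressing remodeling). Each group had a single array, so nothing was tested, no p-value is given, and "higher" and "lower" describe these arrays. A gene counted as bright in a comparison where its brighter array reached that array's median, and as past 2-fold where the log2 difference was then at least 1. Error could be judged only from how far bright probe sets for 1 gene differed, and the pooled standard deviation of that was 0.338 and 0.278 for the Ets2 comparisons in tumor and remodeling macrophages, and 0.410 and 0.320 for tumor minus remodeling on the Ets2-expressing and Ets2-deficient arrays. It does not cover animals, sorts or amplification, and more RNA per cell cannot be told apart from more cells of a type. The Ets2 probe set read 12.67 on the Ets2-deficient and 12.77 on the Ets2-expressing tumor array, and 12.97 on the Ets2-deficient and 13.24 on the Ets2-expressing remodeling array. The deleted exons are not given, so that probe set may not check the labels.

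Of 16 macrophage markers, 14 were measured and 13 were bright on every array (Itgam was not), with list means of 11.25 (Ets2-deficient tumor), 11.26 (Ets2-expressing tumor), 11.16 (Ets2-deficient remodeling) and 10.99 (Ets2-expressing remodeling). The order of these means rests in large part on Cx3cr1, at 10.19, 9.53, 8.99 and 6.77 in the same order. The list medians were 11.54, 11.73, 11.65 and 11.77, highest on the Ets2-expressing remodeling array. Mammary epithelial markers differed between the settings. All 12 were bright on both tumor arrays, with list means of 9.41 (Ets2-deficient) and 8.44 (Ets2-expressing), against 2 bright on the Ets2-deficient remodeling array (mean 4.99) and 3 on the Ets2-expressing remodeling array (mean 5.58). Fibroblast markers had a list mean of 9.26 on the Ets2-deficient and 9.23 on the Ets2-expressing tumor array, and 8.26 on the Ets2-deficient and 10.28 on the Ets2-expressing remodeling array. The epithelial keratin Krt8 read 11.39 on the Ets2-deficient and 10.50 on the Ets2-expressing tumor array, against 5.41 on the Ets2-deficient and 5.83 on the Ets2-expressing remodeling array. Neutrophil markers had list means of 8.53 (Ets2-deficient tumor), 7.56 (Ets2-expressing tumor), 7.14 (Ets2-deficient remodeling) and 7.63 (Ets2-expressing remodeling). These means rest in part on Ltf, at 10.51, 9.53, 4.52 and 5.87 in the same order. Tumor minus remodeling differences of this list had a median of -0.348 log2 under the Ets2-expressing label and 0.88 under the Ets2-deficient one. Under the Ets2-expressing label Ltf (3.66) and Camp (0.17) lay above 0 and Mmp8 was at 0. The rest lay below 0: S100a8 (-1.18), S100a9 (-1.31), Cxcr2 (-1.23), Csf3r (-0.55) and Ngp (-0.145). For mast cell markers the list means were 5.87 (Ets2-deficient tumor), 6.09 (Ets2-expressing tumor), 5.39 (Ets2-deficient remodeling) and 6.99 (Ets2-expressing remodeling). B cell markers averaged 7.29 (Ets2-deficient tumor), 7.56 (Ets2-expressing tumor), 7.18 (Ets2-deficient remodeling) and 6.54 (Ets2-expressing remodeling). Cell cycle genes averaged 9.14 (Ets2-deficient tumor), 8.61 (Ets2-expressing tumor), 9.04 (Ets2-deficient remodeling) and 8.22 (Ets2-expressing remodeling). The part of other cells in the lysosomal values below was not tested.

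The lysosomal genes were bright nearly throughout. Of the 38 members, 37 were at or above the array median on all 4 arrays, and the exception was Galc, which encodes the galactosylceramidase of glycolipid breakdown, at 5.66 (Ets2-deficient tumor), 5.56 (Ets2-expressing tumor), 6.06 (Ets2-deficient remodeling) and 5.85 (Ets2-expressing remodeling). Of all 12393 genes, 6375 were bright on all 4 arrays. Between its highest and lowest array a member differed by a median of 0.46 log2, from 0.16 (the pump accessory subunit Atp6ap1) to 1.43 (Galns). For comparison, the median range of the 6375 genes bright on all arrays was 0.58. A range of at least 1 log2 was seen for 3 members (7.89%) and for 935 of those 6375 genes (14.7%). With values as deposited, the members lay highest on a tumor array in 30 of 38 cases, 13 times on the Ets2-deficient and 17 times on the Ets2-expressing one. They lay lowest on the Ets2-expressing remodeling array in 20 cases. Such counts were not made over all genes, so they cannot be read as particular to the members. Bright genes as a whole also leaned toward tumor in tumor minus remodeling. Under the Ets2-expressing label 55.9% of them lay above 0, beside 81.1% of bright members. For the Ets2-deficient label the shares were 53.7% and 76.3%.

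**Figure D2:**
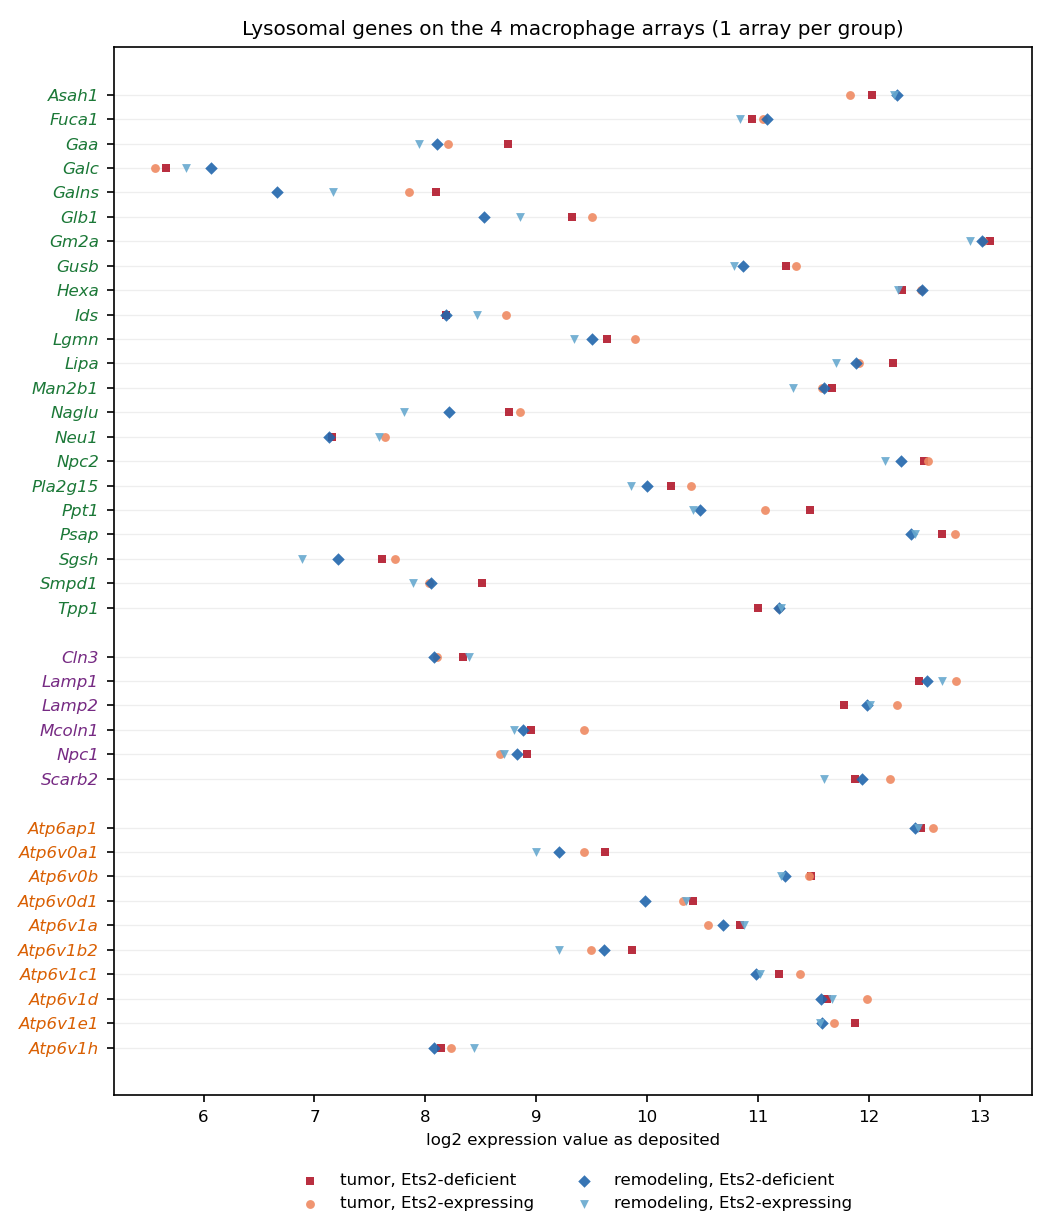
Log2 expression values as deposited (horizontal axis) of the 38 measured lysosomal genes, 1 row per gene by its brightest probe set on average, with gene names coloured by role (green, hydrolases and cofactors; purple, membrane proteins; orange, proton pump). Each symbol is 1 array, and there are no error bars because each group had 1 array. The 4 symbols of most genes lie within 1 log2 unit of each other, with Galns, Ppt1 and Naglu as the exceptions.

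Tumor macrophages had slightly higher lysosomal gene values than remodeling macrophages on the Ets2-expressing arrays. Of the 38 members, 30 lay above 0 in that difference, with a median of 0.26 log2 and a range from -0.39 to 1.04. All 7253 genes bright in this comparison had a median of 0.085, and 55.9% of them lay above 0. The direction of the members' median was the same under the 3 other array scalings tried (0.18 to 0.26). Most differences were small beside the probe set spread: 11 members exceeded the pooled standard deviation of 0.410 upward and none downward, beside 45.0% of all bright genes that exceeded it in either direction. The mammary epithelial markers had a median difference of 2.76 log2 in this comparison and of 4.43 in that of the Ets2-deficient arrays, and their part in the lysosomal values was not tested. The difference between 3' and 5' control probe sets, a sign of RNA quality, was also larger on the tumor arrays. For Actb it was 3.54 (Ets2-deficient) and 3.30 (Ets2-expressing) on the tumor arrays, against 2.96 (Ets2-deficient) and 2.72 (Ets2-expressing) on the remodeling arrays. For Gapdh it was 2.27 (Ets2-deficient) and 2.45 (Ets2-expressing) on the tumor arrays, against 1.80 (Ets2-deficient) and 1.61 (Ets2-expressing) on the remodeling arrays. The part of this in the tumor minus remodeling differences was not tested. On the Ets2-expressing arrays the tumor sample carried 1 copy of Ets2 by its label and the remodeling sample was wild type. Tumor setting and Ets2 copy number therefore cannot be told apart in this comparison.

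Naglu, the lysosomal glucosaminidase of heparan sulfate breakdown, was the member past 2-fold in that comparison. Its values were 8.75 on the Ets2-deficient and 8.85 on the Ets2-expressing tumor array, against 8.21 on the Ets2-deficient and 7.81 on the Ets2-expressing remodeling array. Both tumor arrays lay above both remodeling arrays, and the difference was 1.04 log2 (2.06-fold) on the Ets2-expressing arrays and 0.54 for the Ets2-deficient label. So 1 of 37 bright members was at least 2-fold higher, where 6.18% of all bright genes were, and none was at least 2-fold lower, where 5.20% were. With hybridization-control centring the Naglu difference lay under 2-fold, at 0.97. At a limit of 1.5-fold 7 members were higher (Galns, Glb1, Mcoln1, Naglu, Ppt1, Scarb2 and Sgsh, against 16.9% of bright genes) and none lower (against 13.0%).

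On the Ets2-deficient arrays 29 of 38 members were higher in tumor than in remodeling macrophages, with a median of 0.18 log2, but this direction turned with the array scaling, to a median of -0.14 after median centring and -0.047 with hybridization-control centring. Median centring moved the median of all genes in this comparison to -0.31, from 0.012 as deposited. Relative to the median of all 7203 bright genes (0.058) the members' median was 0.12 higher as deposited. Either centring shifts all genes of an array alike, so it cannot change this value. Against the bright genes of the same setting it was 0.18 higher after quantile normalization and 0.050 higher with the mean of all probe sets. Of the members, 26 of 38 lay above that median of all bright genes.

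Galns, the sulfatase of keratan sulfate breakdown, was the member past 2-fold on the Ets2-deficient arrays. Its values were 8.10 on the Ets2-deficient and 7.85 on the Ets2-expressing tumor array, against 6.67 on the Ets2-deficient and 7.17 on the Ets2-expressing remodeling array. The tumor arrays again lay above the remodeling arrays, by 1.43 log2 (2.70-fold) on the Ets2-deficient and 0.69 on the Ets2-expressing arrays. Just below the limit was Ppt1, the thioesterase that removes fatty acids from proteins, at 0.99 and 0.65 log2. Thus 1 of 38 bright members was at least 2-fold higher, where 7.61% of all bright genes were, and none was at least 2-fold lower, where 1.61% were. At 1.5-fold there were 4 higher (Gaa, Galns, Glb1 and Ppt1, against 15.9% of bright genes) and none lower (against 7.76%). Galns and Naglu each have 1 probe set, so their sizes rest on it. The other Ppt1 probe set gave 0.18 on the Ets2-deficient and 0.25 on the Ets2-expressing arrays.

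The tumor minus remodeling differences on the Ets2-expressing and the Ets2-deficient arrays share no array, so they can be set side by side. The Ets2-expressing one also sets 1 copy of Ets2 against wild type, whereas both Ets2-deficient samples had 2 copies deleted. With values as deposited, 24 of the 38 members were higher in tumor macrophages under both Ets2 labels, 3 were lower under both, 10 went opposite ways and Ids was at 0 under the Ets2-deficient label, whereas after median centring 11 lay above 0 on the Ets2-deficient arrays. The same sign was thus seen for 71.1% of members and for 66.9% of the 6990 genes bright in both comparisons. Across the members Pearson's r was 0.52, and 0.58 across those 6990 genes, as a description over genes that share the same 4 arrays. The 3 members lower in tumor under both labels were Asah1, the acid ceramidase (-0.39 for the Ets2-expressing and -0.22 for the Ets2-deficient arrays), Galc (-0.28 and -0.40) and the peptidase gene Tpp1 (-0.01 and -0.19).

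**Figure D3:**
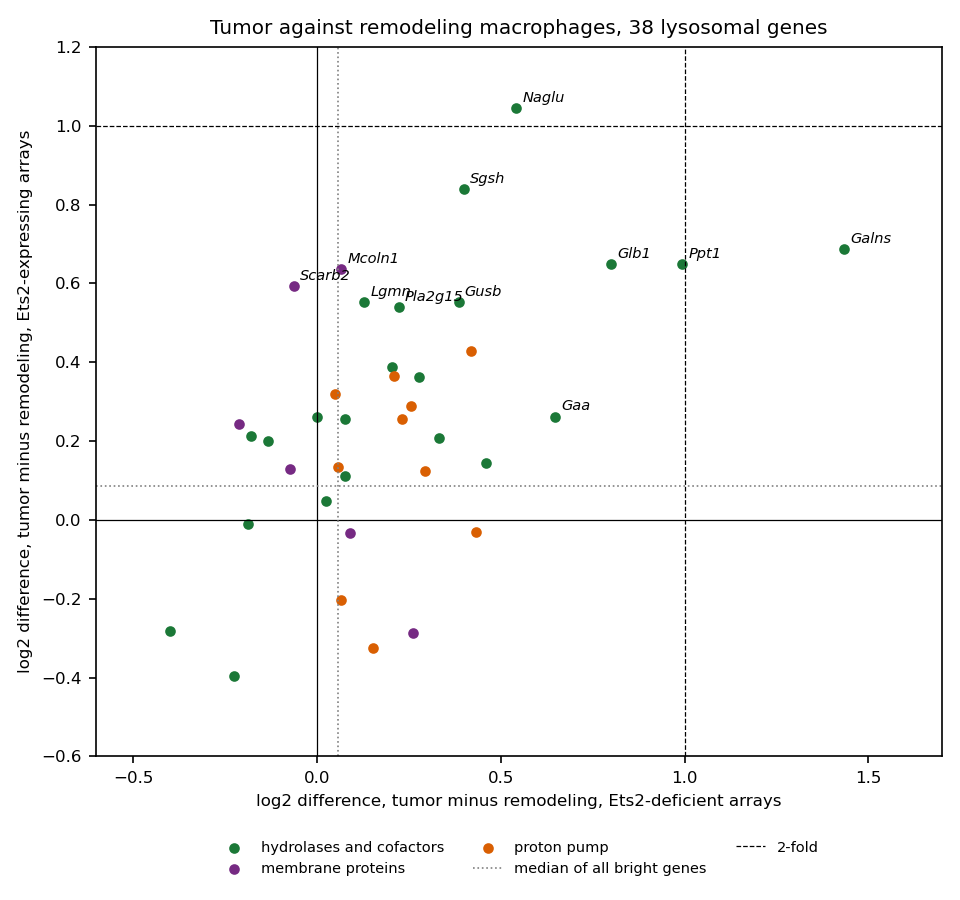
Tumor minus remodeling log2 differences of the 38 lysosomal genes on the Ets2-deficient arrays (horizontal axis) and the Ets2-expressing ones (vertical axis), 1 point per gene, coloured by role, with names at 0.5 or more. Most points lie in the upper right with values as deposited, where 24 genes were higher under both labels, although the median on the horizontal axis falls below 0 after median centring (-0.14). Naglu and Galns alone pass the dashed 2-fold lines.

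Hydrolases and cofactors had a median tumor minus remodeling difference of 0.26 log2 for the Ets2-expressing arrays (19 of 22 above 0) and 0.21 for the Ets2-deficient ones (16 of 22), the second of which turned to -0.11 after median centring and -0.012 with hybridization-control centring. Glb1, the beta-galactosidase, read 9.32 on the Ets2-deficient and 9.51 on the Ets2-expressing tumor array, against 8.53 on the Ets2-deficient and 8.86 on the Ets2-expressing remodeling array. Sgsh, the heparan sulfatase, read 7.61 on the Ets2-deficient and 7.73 on the Ets2-expressing tumor array, against 7.21 on the Ets2-deficient and 6.89 on the Ets2-expressing remodeling array. In each case the tumor arrays were both above the remodeling arrays. Gusb, the beta-glucuronidase, followed the same order with differences of 0.55 log2 for the Ets2-expressing and 0.38 for the Ets2-deficient arrays. Other members did not: the hexosaminidase subunit Hexa differed by 0.21 and -0.18, and the iduronate sulfatase Ids by 0.26 and 0. The probe sets of the fucosidase gene Fuca1 disagreed. The one used gave 0.20 for the Ets2-expressing and -0.13 for the Ets2-deficient arrays, while its other 2 bright probe sets were lower in tumor macrophages under both labels, with differences of -0.17 and -0.86 for 1 probe set and of -0.71 and -0.85 for the other.

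Among the members that handle lipids, Psap, the precursor of the sphingolipid activator proteins, read 12.66 on the Ets2-deficient and 12.78 on the Ets2-expressing tumor array, against 12.38 on the Ets2-deficient and 12.42 on the Ets2-expressing remodeling array. Npc2, which hands cholesterol to the exporter Npc1 in the lysosomal membrane, differed by 0.39 log2 for the Ets2-expressing and 0.20 for the Ets2-deficient arrays. For Npc1 itself the differences were -0.03 and 0.09. Gm2a, the ganglioside activator, differed by no more than 0.18 log2 among the 4 arrays. The phospholipase gene Pla2g15 was higher in tumor macrophages by 0.54 and 0.22 log2, and Smpd1, the acid sphingomyelinase, by 0.14 and 0.46. Among the remaining enzymes, the differences on the Ets2-expressing and Ets2-deficient arrays were 0.26 and 0.65 for the glycogen-degrading glucosidase Gaa, and 0.26 and 0.07 for the mannosidase Man2b1. The other Gaa probe set gave -0.105 and 0.72. The other Man2b1 probe set gave 0.08, where it was not bright, and -0.965, where it was. Lgmn, the asparaginyl endopeptidase, gave 0.55 and 0.13.

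The proton pump subunits had a median range over the 4 arrays of 0.38 log2, and the hydrolases of 0.53. On the Ets2-deficient arrays all 10 measured subunits lay above 0 in the tumor minus remodeling difference, from 0.05 to 0.43 log2 with a median of 0.22, but after median centring that median was -0.10 and with hybridization-control centring -0.0037. Of the 10, 8 lay above the median of all bright genes. With the mean of all probe sets of a gene the median was 0.072, and other bright probe sets lay below 0 for Atp6v1a (-0.37), Atp6v0b (-0.08) and Atp6v1b2 (-0.09 and -0.03). On the Ets2-expressing arrays 7 of 10 lay above 0 (median 0.20), and 3 below: Atp6v0d1, of the membrane sector (-0.03), Atp6v1a, the catalytic subunit (-0.33), and Atp6v1h, a regulatory subunit of the cytosolic sector (-0.20). The subunit with the largest range was Atp6v1b2, of the cytosolic sector, with 9.87 on the Ets2-deficient and 9.50 on the Ets2-expressing tumor array, against 9.61 on the Ets2-deficient and 9.21 on the Ets2-expressing remodeling array. In the membrane sector, Atp6v0a1 differed by 0.43 for the Ets2-expressing and 0.42 for the Ets2-deficient arrays and Atp6v0b by 0.26 and 0.23. The stalk genes of the cytosolic sector gave 0.37 and 0.21 (Atp6v1c1), 0.32 and 0.05 (Atp6v1d) and 0.12 and 0.29 (Atp6v1e1).

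The Ets2 comparison in tumor macrophages held no member past 2-fold. Of 37 bright members none was at least 2-fold higher on the Ets2-deficient array, where 2.23% of all bright genes were, and none at least 2-fold lower, where 0.761% were. At 1.5-fold there was none either, against 9.27% of bright genes higher and 5.99% lower. Of the 38 members 17 lay above 0, with a median of -0.090 log2 and a range from -0.54 (Ids) to 0.54 (Gaa), beside a median of 0.034 for all bright genes. Under the 3 other scalings the members' median stayed below 0, from -0.17 to -0.038. In size, 9 members exceeded the pooled probe set spread of 0.338, while 38.2% of all bright genes did.

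Membrane proteins had the lowest median of the 3 roles in that comparison. It was -0.32 log2, and 4 of 6 lay below 0. Lamp2, with Lamp1 a major glycoprotein of the limiting membrane, read 11.78 on the Ets2-deficient and 12.26 on the Ets2-expressing tumor array, against 11.99 on the Ets2-deficient and 12.01 on the Ets2-expressing remodeling array. Its 4 probe sets all lay below 0 in the tumor Ets2 comparison, from -0.48 to -0.23. Mcoln1, the lysosomal calcium channel, differed by -0.49 and -0.86 in its 2 probe sets, and Scarb2, the carrier of glucocerebrosidase, by -0.31 and -0.54. Lamp1 differed by -0.33, while Npc1 (0.25) and Cln3 (0.24) lay above 0. The Ets2-expressing tumor array was the highest of the 4 for Lamp1, Lamp2, Mcoln1 and Scarb2, and that array also enters the tumor minus remodeling difference under the Ets2-expressing label. In that difference 4 of the 6 membrane proteins lay above 0 (median 0.19), with Mcoln1 at 0.64 and Scarb2 at 0.59, and under the Ets2-deficient label 3 of 6 did. With only the probe sets whose names end in a plain _at, the tumor Ets2 median of the membrane proteins was -0.038. Lamp1 and Mcoln1 have no such probe set and dropped out of that median. With the mean of all probe sets of a gene it was -0.33.

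Hydrolases had a median of -0.092 in the tumor Ets2 comparison. Pump subunits had a median of 0.054, which turned to -0.027 after median centring and -0.032 with the mean of all probe sets of a gene. Above the probe set spread on the higher side were Gaa (0.54), Smpd1 (0.48), Ppt1 (0.41) and Atp6v1b2 (0.37). Other bright probe sets gave 0.41 for Gaa, but -0.17 for Ppt1 and -0.11 and 0.00 for Atp6v1b2. On the lower side were Ids (-0.54), the sialidase Neu1 (-0.48), Mcoln1, Lamp2 and Atp6v1d (-0.36). Further Neu1 probe sets, not bright in this comparison, gave 1.45 and -0.02. Naglu, Sgsh, Galns, Glb1 and Gusb lay between -0.18 (Glb1) and 0.25 (Galns) here.

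In remodeling macrophages the Ets2 comparison also held no member past 2-fold. Of 38 bright members none was at least 2-fold higher on the Ets2-deficient array, where 1.31% of all bright genes were, and none at least 2-fold lower, where 5.17% were. At 1.5-fold there was none, against 6.53% of bright genes higher and 9.73% lower. The median was 0.072 log2, with 23 of 38 above 0 and a range from -0.50 (Galns) to 0.41 (Atp6v1b2). All bright genes had a median of 0.048, so that relative to them the members' median was 0.024 higher. Median centring raised every gene of this comparison alike and put the members' median at 0.27, while the mean of all probe sets of a gene turned it to -0.027. Hydrolases had a median of 0.14 with 16 of 22 above 0, which was 0.34 under either centring and 0.0093 with the mean of all probe sets of a gene. Pump subunits had a median of -0.029 with 4 of 10 above 0, and this median turned to 0.16 after median centring and 0.17 with hybridization-control centring.

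**Figure D4:**
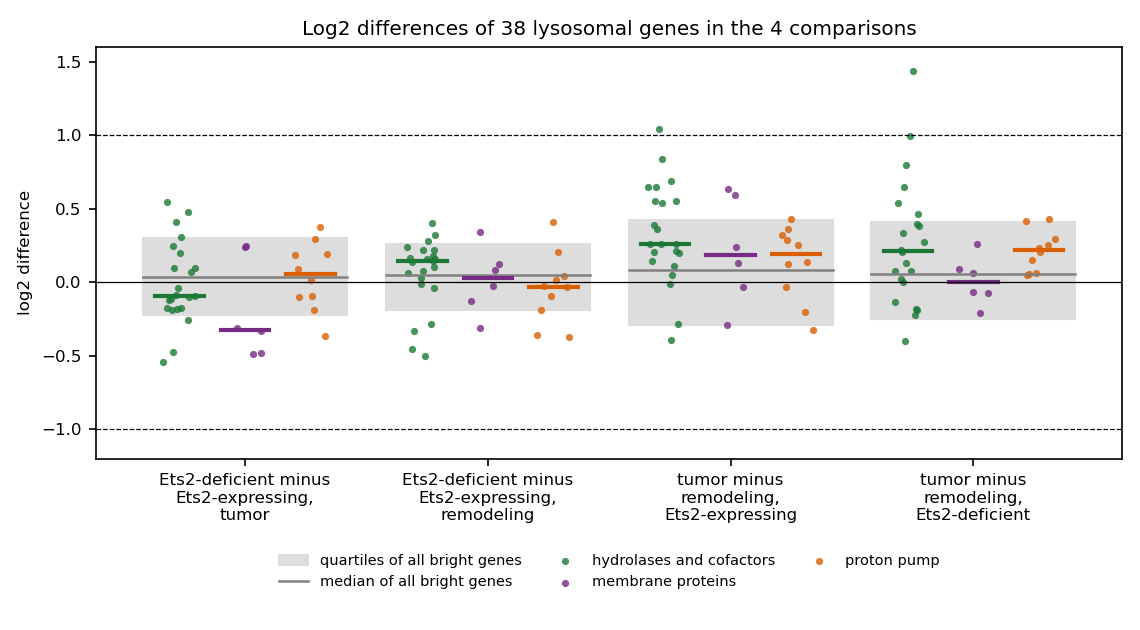
Log2 differences of the 38 lysosomal genes in the 4 comparisons (horizontal axis), with 1 point per gene and a thick bar at the median of each role. Grey boxes span the quartiles of all genes bright in the comparison and grey lines their medians; dashed lines mark 2-fold. Most points lie inside or near the grey boxes, and membrane proteins have their lowest median (-0.32) in the tumor Ets2 comparison. Some role medians change sign with the array scaling. For tumor minus remodeling on the Ets2-deficient arrays those of hydrolases (0.21) and pump subunits (0.22) turn to -0.11 and -0.099 after median centring.

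The Ets2 differences in tumor and remodeling macrophages share no array. Their Ets2-expressing samples were not alike, with 1 copy of Ets2 in the tumor sample and a wild-type remodeling sample. For 24 of 38 members (63.2%) the Ets2 differences had the same sign, 13 higher and 11 lower with the Ets2-deficient label, and 52.3% of the 6849 genes bright in both had the same sign. The difference between the Ets2 differences, a value without error, stayed under 1 log2 for all 38 members, from -0.66 (Scarb2) to 0.75 (Galns), while 855 of 7473 genes bright on an array reached 1. The probe set used for Neu1 was lower with the Ets2-deficient label in both settings, at -0.48 in tumor and -0.45 in remodeling macrophages. It read 7.16 on the Ets2-deficient and 7.63 on the Ets2-expressing tumor array, against 7.13 on the Ets2-deficient and 7.59 on the Ets2-expressing remodeling array. Another Neu1 probe set, bright only in the remodeling comparison, gave 1.45 in tumor and -0.225 in remodeling macrophages. The dimmest Neu1 probe set, bright in neither comparison, gave -0.02 and 0.29. The probe set used for Atp6v1b2 gave 0.37 in tumor and 0.41 in remodeling macrophages, but its other 2 bright probe sets gave -0.11 and 0.00 in tumor macrophages and 0.25 and 0.17 in remodeling macrophages.

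Several probe sets per gene were available for 25 of the 38 members, and they did not always give the same picture. Where at least 2 probe sets were bright, all pointed the same way for 10 of 18 members in the tumor Ets2 comparison, 12 of 19 in the remodeling Ets2 comparison, 12 of 19 for tumor minus remodeling under the Ets2-expressing label and 11 of 18 on the Ets2-deficient arrays. Lipa, the acid lipase that releases cholesterol and fatty acids from lipoprotein lipids, showed the widest disagreement. Its dimmest probe set read 7.70 on the Ets2-deficient and 7.87 on the Ets2-expressing tumor array, against 10.49 on the Ets2-deficient and 7.36 on the Ets2-expressing remodeling array. Its other probe sets were level, between 11.71 and 12.22 for the one used and between 11.43 and 11.62 for the remaining one. The Neu1 probe set next in brightness to the one used read 6.29 on the Ets2-deficient and 4.84 on the Ets2-expressing tumor array, against 6.19 on the Ets2-deficient and 6.42 on the Ets2-expressing remodeling array. The probe set used for Neu1 had its highest value on that same Ets2-expressing tumor array.

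**Figure D5:**
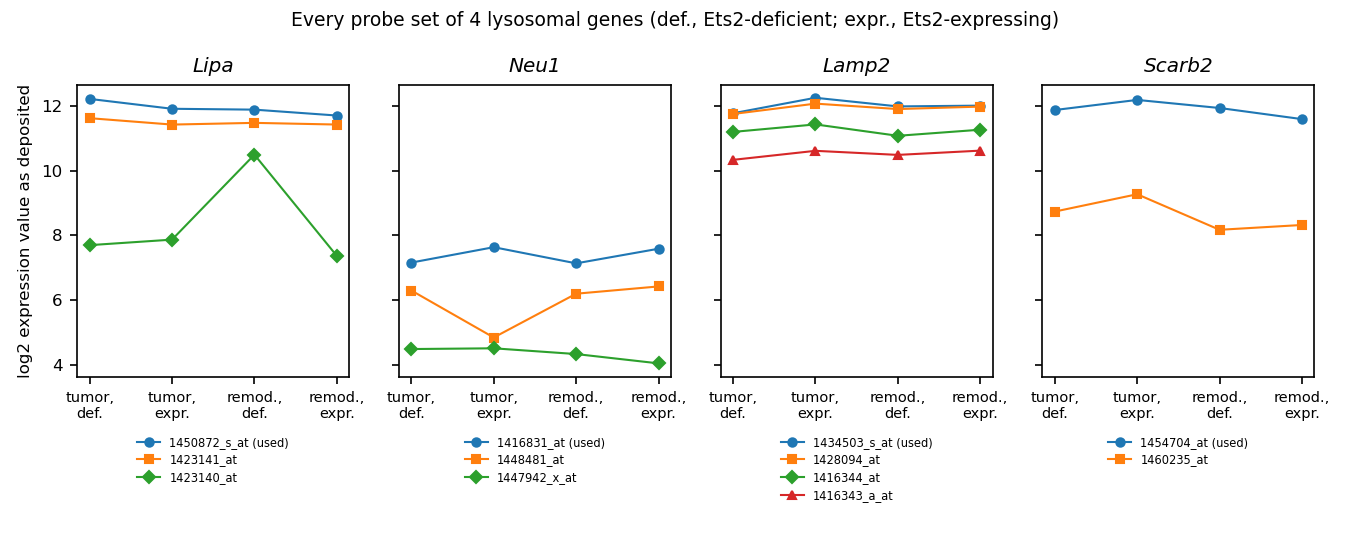
Every probe set of Lipa, Neu1, Lamp2 and Scarb2 on the 4 arrays, as log2 values as deposited; lines join the values of 1 probe set and the probe set used for the gene is marked. All 4 Lamp2 probe sets lie lower on the Ets2-deficient than on the Ets2-expressing tumor array, whereas the dimmest Lipa probe set stands out on the Ets2-deficient remodeling array (10.49) and a Neu1 probe set on the Ets2-expressing tumor array (4.84).

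The differences were also split by the E-box, as a description. For tumor minus remodeling the 11 members with an E-box had a median of 0.26 on the Ets2-expressing arrays and the 21 members with a window but no E-box a median of 0.24. On the Ets2-deficient arrays the medians were 0.26 and 0.075. In the Ets2 comparisons they were -0.099 and -0.094 in tumor macrophages and 0.041 and 0.10 in remodeling macrophages.

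Other lysosome genes, listed apart from the members, numbered 100 measured, of which 87 were bright in each tumor minus remodeling comparison. Of those 87, 4 were at least 2-fold higher in tumor macrophages and 1 lower for the Ets2-expressing arrays, where 6.18% and 5.20% of all bright genes were. For the Ets2-deficient arrays 4 of 87 were higher and 1 lower, where 7.61% and 1.61% of all bright genes were. These counts are no larger than the shares over all genes would give, and the genes are named as values. The largest difference was that of Gpnmb, a glycoprotein of lysosomes and melanosomes, at 10.98 on the Ets2-deficient and 11.43 on the Ets2-expressing tumor array, against 8.13 on the Ets2-deficient and 7.78 on the Ets2-expressing remodeling array. Acp5, the tartrate-resistant acid phosphatase, was higher by 1.79 log2 for the Ets2-expressing and 1.38 for the Ets2-deficient arrays. The pump subunit genes Atp6v1b1 (2.47 and 2.40) and Atp6v1c2 (1.88 and 2.38), known from specialised epithelia such as that of the kidney, were higher under both labels, Atp6v1c2 not being bright, and so not counted, for the Ets2-expressing arrays. Atp6v1c2 read 6.68 on the Ets2-deficient and 6.11 on the Ets2-expressing tumor array, against 4.30 on the Ets2-deficient and 4.23 on the Ets2-expressing remodeling array, where it lay near the 25th percentile of each array (4.29 and 4.27), so the size of its difference is not exact. The mammary epithelial markers given above, 12 of 12 bright on the tumor arrays, ran in the same direction as these 2 subunits, and their part was not tested.

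The osteoclast and macrophage pump subunit Tcirg1 was higher in tumor macrophages by 0.89 log2 for the Ets2-expressing and 0.78 for the Ets2-deficient arrays, short of 2-fold. Mfsd8, a lysosomal membrane transporter, differed by 1.07 on the Ets2-expressing and 0 for the Ets2-deficient arrays. Among the cathepsins, Ctse was lower in tumor macrophages (-1.08 and -1.04), Ctsf differed by -1.08 for the Ets2-deficient arrays without being bright there, and Ctsk was lower with the Ets2-deficient label in tumor (-1.02) and remodeling macrophages (-1.97). In remodeling macrophages Ctsk, which is also made by fibroblasts, went with the lower fibroblast markers of the Ets2-deficient array given above, and their part was not tested. The calcium channel gene Mcoln2, a relative of Mcoln1, differed by -1.16 in that comparison, which together with Ctsk made 2 of 87 bright genes at least 2-fold lower, where 5.17% of all bright genes were, and none higher, where 1.31% were.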

How the data were processed

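Gene expression in sorted mammary macrophages was measured on 4 Affymetrix mouse arrays of 22690 probe sets, 1 per group. The deposited values are log2 expression values, and per the submitters' processing notes GCOS and RMA were used, without a version or a stated step for either. Per the labels, about 10 ng of RNA was amplified with the NuGEN Ovation system. Values were used as deposited, without further scaling. Of the probe sets, 20380 named exactly 1 gene, 691 several and 1555 none, besides 64 controls. Each of 12393 genes was read from its brightest probe set, by the average over 4 arrays. All 38 member symbols matched current names through Entrez identifiers. Depth does not apply to arrays, and their number limits the precision.

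With 1 array per group, comparisons are log2 differences without a test, set beside all genes bright in the comparison. The alternatives were median centring, quantile normalization, hybridization-control centring (18 probe sets), the mean of all probe sets, plain probe sets alone (names ending in _at without a further letter), other brightness limits and a 1.5-fold limit. The calling procedure was run on simulated data, with planted differences well past 2-fold and only in genes of high value. That run does not check calls near the limit. The members and gene lists were chosen with earlier results of these data known. All members were named, and other lysosome genes where past 2-fold, at most 4 per list and comparison, while Tcirg1, Tfeb and others named below 2-fold were chosen after their values were seen. Python 3.11.15, pandas 2.3.3, numpy 2.4.6 and matplotlib 3.10.9 were used.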

Additional observations from a re-analysis of the deposited data

Results flagged for a closer look

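Certain probe sets that did not represent their gene passed 2-fold where the probe set used did not. The dimmest Lipa probe set differed by 3.13 log2 between the Ets2-deficient and the Ets2-expressing remodeling array and by -2.80 between the Ets2-deficient tumor and remodeling arrays, while the probe set used gave 0.18 and 0.33. A Neu1 probe set differed by -1.58 between the Ets2-expressing tumor and remodeling arrays, where the probe set used gave 0.05. In each case 1 array stood apart, the Ets2-deficient remodeling array for Lipa and the Ets2-expressing tumor array for Neu1.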

How the results depend on the processing

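No paired analysis was possible because each group had 1 array, and for the same reason no replicate could be left out. Members past 2-fold numbered 0 for tumor minus remodeling under the Ets2-expressing label with hybridization-control centring, and 0 on the Ets2-deficient arrays with the brightness limit at the 75th percentile. They numbered 1 in the remodeling Ets2 comparison with the mean of all probe sets, where Lipa's further probe set enters. At 1.5-fold there were 7 and 4 members higher in tumor macrophages on the Ets2-expressing and Ets2-deficient arrays. The members' median in the remodeling Ets2 comparison was 0.27 after median centring and 0.27 with hybridization-control centring, and in tumor minus remodeling on the Ets2-deficient arrays -0.14 and -0.047. The other 95 values of counts and medians over all members stayed within 1.5 times (counts) or the median spread between probe sets (medians). Of the values for single roles and for Naglu and Galns, 59 stayed within that spread and 17 moved beyond it. The Galns difference ran from 1.11 to 1.43 over the scalings, and that of Naglu was 0.97 with hybridization-control centring.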

Other observations

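Regulators of lysosomal genes and of growth signalling at the lysosome held no gene past 2-fold in any of the 4 comparisons. In the tumor Ets2 comparison 13 of 16 measured lay below 0 and 2 above, with a median of -0.24 log2, against a median of 0.034 for all bright genes. Of the 15 bright regulators 12 lay below 0, beside 3302 of all 7225 bright genes. The regulators' median in the remodeling Ets2 comparison was 0.13. Tfeb, the transcription factor that binds the CLEAR element, read 6.44 on the Ets2-deficient and 6.71 on the Ets2-expressing tumor array, against 6.11 on the Ets2-deficient and 5.92 on the Ets2-expressing remodeling array. Mtor, the growth-signalling kinase that acts at the lysosome, differed by -0.47 in tumor and 0.65 in remodeling macrophages. Mitf, a relative of Tfeb, differed by 0.00 and 0.25.

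Genes that deliver enzymes to lysosomes, 9 measured, and autophagy genes, 16 measured, also held none past 2-fold. Nearest to it were Igf2r, the larger mannose phosphate receptor, with a tumor minus remodeling difference of 0.97 log2 on the Ets2-deficient and 0.50 on the Ets2-expressing arrays, and the autophagy gene Uvrag, at -0.97 on the Ets2-expressing arrays. M6pr, the smaller receptor, differed by -0.13 and 0.04. In the tumor Ets2 comparison 6 delivery genes lay above 0 and 3 below, and 8 autophagy genes lay above 0 and 7 below.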
